A study of Mus musculus with 16 samples.

Results

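The genes described here encode 7 matrix metalloproteinases (Mmp2, Mmp3, Mmp9, Mmp10, Mmp12, Mmp13 and Mmp14) and 3 of their tissue inhibitors (Timp1, Timp2 and Timp3). They are 10 of the 19938 genes measured in mouse embryo fibroblasts (MEFs). They were chosen by name, with earlier results of these data known, and each is read by 1 probe set on the array. All 10 passed into the tests, since no gene was left out for low values. Matrix metalloproteinases are zinc-dependent endopeptidases that are made as inactive precursors and, once cleaved, degrade collagens, laminins, proteoglycans and elastin. TIMPs are secreted proteins that block the active site of these enzymes, so that the balance of the 2 families sets how fast matrix is turned over. In fibroblasts TNFα, an inflammatory cytokine that acts through NF-κB and AP-1, is known to raise transcription of several metalloproteinase genes.

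The study asked how SIMPL, a protein encoded by Irak1bp1 that takes part in TNFα signalling to NF-κB, affects gene expression, and used MEFs from SIMPL-/- mice (labelled IRAK1BP1 knockout) and from littermate mice (labelled WT) of a mixed C57Bl/6 x 129Sv strain. The 4 groups were SIMPL-/- MEFs with TNFα, untreated SIMPL-/- MEFs, littermate MEFs with TNFα and untreated littermate MEFs, with 4 Affymetrix Mouse Gene 1.0 ST arrays in each. TNFα was recombinant human protein at 10 ng/ml, given for 45 minutes by the labels and for an hour by the methods. Each set of MEFs came from 1 embryo, derived independently 4 times per genotype by the methods; no source ties a treated array to the untreated array of its embryo, and no batch is named. Replicate and array numbers within a group follow accession order and are names only. The MEFs carried the deletion from the embryo, so genotype differences include any that arose before the cells were cultured, and p-values measure only the spread between these arrays.

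Values are log2 intensities, on which a difference of 1 is a doubling, and levels of different genes are not set against each other because each probe set has its own brightness. Array medians lay between 6.67 and 6.76, and 2 arrays of 1 group correlated at a Pearson's r of 0.995 or more across genes, which are not independent replicates. Irak1bp1 itself averaged 5.37 ± 0.24 in SIMPL-/- MEFs with TNFα and 5.36 ± 0.19 in untreated SIMPL-/- MEFs, against 7.91 ± 0.18 in littermate MEFs with TNFα and 8.09 ± 0.17 in untreated littermate MEFs (SD, n = 4 each), so all arrays fit their genotype labels. Fibroblast markers were bright in every group, with a mean log2 value over 16 genes of 12.03 to 12.12 in SIMPL-/- MEFs with TNFα, 12.06 to 12.15 in untreated SIMPL-/- MEFs, 12.29 to 12.33 in littermate MEFs with TNFα and 12.30 to 12.40 in untreated littermate MEFs. Differences were tested with limma over all genes, and a gene is called at a Benjamini-Hochberg adjusted p under 0.05.

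The genotypes differed in nearly every gene of the set, and not in 1 direction. Mmp2, Mmp3, Mmp12, Mmp13, Mmp14 and Timp2 were lower in SIMPL-/- MEFs than in littermate MEFs with and without TNFα, while Mmp9, Timp1 and Timp3 were higher in both states and Mmp10 was higher after TNFα. Without TNFα 3 of the 10 genes were higher, 6 lower and 1, Mmp10, was not called. With TNFα 4 were higher and 6 lower. Over all genes the share called was also large: 23.3% were higher and 17.6% lower without TNFα, and 17.8% were higher and 18.4% lower with it. The median log2 difference of the 10 genes was -0.45 without TNFα, against 0.07 over all genes, and -0.44 with TNFα, against 0.03 over all genes. For all 10 genes no SIMPL-/- array overlapped a littermate array in the same state, 4 lying higher and 6 lower. The share of all genes that separated in this way was not counted, so the separation is not read as particular to the set. When each array was centred on its own median, 68.6% of all calls without TNFα and 67.3% of those with TNFα were higher in SIMPL-/- MEFs, against 56.9% and 49.2% as deposited; no genotype difference of the 10 genes changed direction under that scaling or any of the other 23 alternatives.

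**Figure D1:**
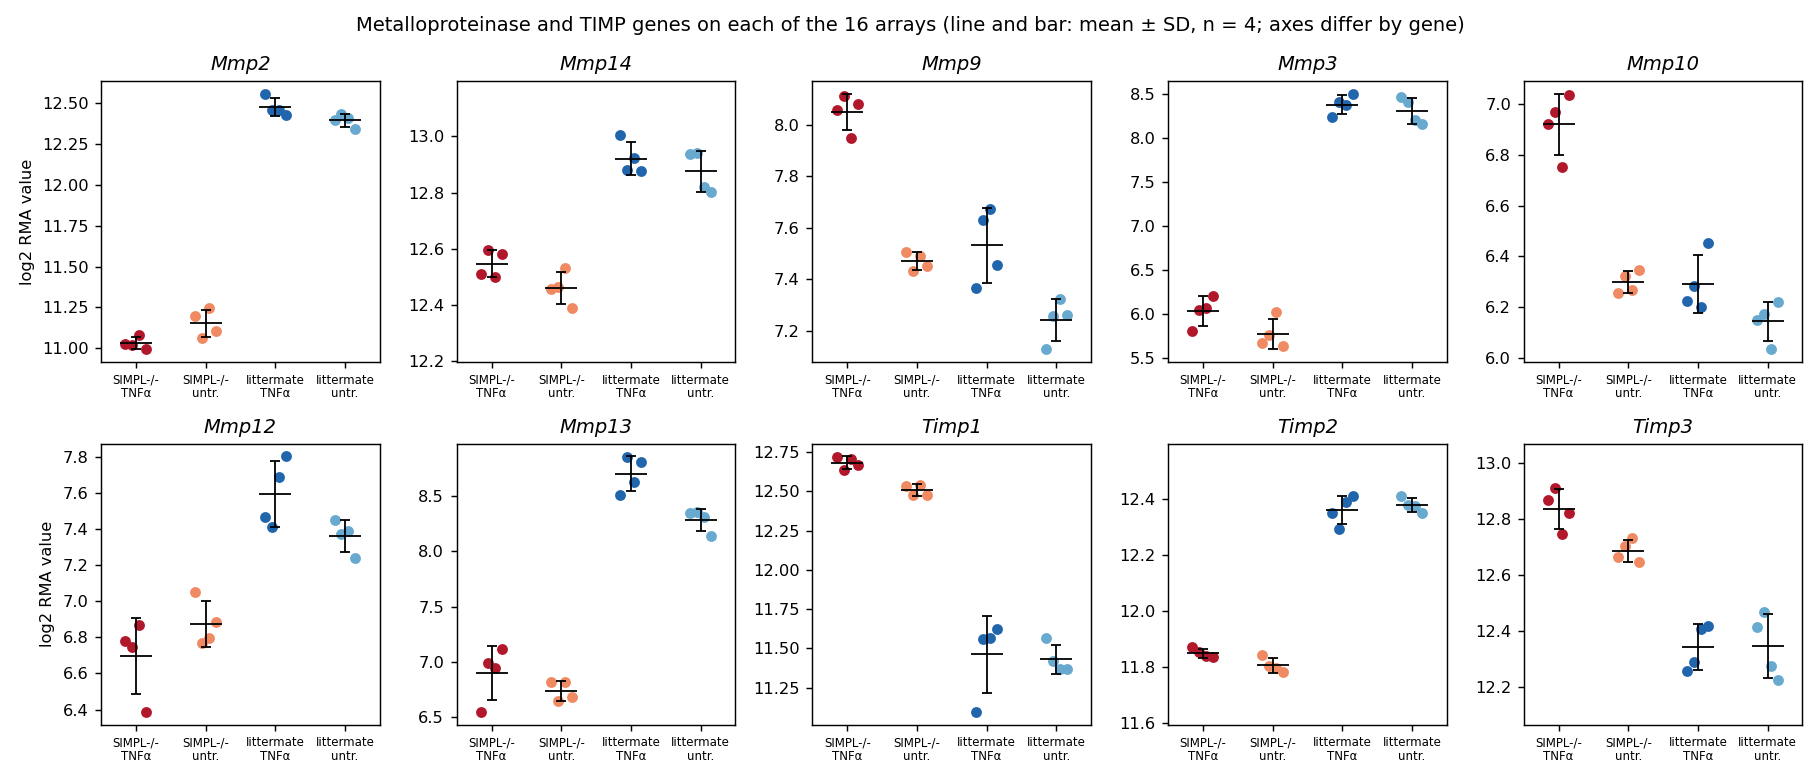
Log2 RMA value (vertical axes, which differ by gene) of the 10 genes on each array, by genotype and treatment. Each point is 1 array and the black line with bars is the mean ± SD of 4 arrays; SIMPL-/- arrays lie wholly below or wholly above littermate arrays of the same treatment in every panel, and replicate 1 of the TNFα treated littermate MEFs lies apart from its group for Timp1 at 11.10.

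Mmp2 encodes gelatinase A, which cleaves type IV and denatured collagen and is abundant in fibroblasts. Its log2 values were 11.03, 11.02, 11.08 and 10.99 in SIMPL-/- MEFs with TNFα, against 12.56, 12.46, 12.46 and 12.43 in littermate MEFs with TNFα. Untreated SIMPL-/- MEFs gave 11.20, 11.06, 11.24 and 11.11, against 12.40, 12.44, 12.41 and 12.34 in untreated littermate MEFs. All 8 SIMPL-/- arrays were thus below all 8 littermate arrays, by more than 1 log2 unit. The log2 difference was -1.24 (SE 0.053, limma adjusted p = 1.5e-12) without TNFα, a level 2.37-fold lower in SIMPL-/- MEFs, and -1.45 (SE 0.053, adjusted p = 2.03e-13) with it.

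Mmp14 and Timp2 act with gelatinase A: Mmp14 is a membrane-anchored collagenase that activates the Mmp2 precursor at the cell surface, and Timp2, besides inhibiting the enzymes, bridges the precursor to Mmp14. Both were lower in SIMPL-/- MEFs. Mmp14 had log2 values of 12.51, 12.60, 12.50 and 12.58 in SIMPL-/- MEFs with TNFα, against 13.00, 12.88, 12.92 and 12.88 in littermate MEFs with TNFα, and of 12.46, 12.46, 12.53 and 12.39 in untreated SIMPL-/- MEFs, against 12.94, 12.94, 12.82 and 12.80 in untreated littermate MEFs. The highest SIMPL-/- array, at 12.60, was below the lowest littermate array, at 12.80. Timp2 had 11.87, 11.85, 11.84 and 11.83 in SIMPL-/- MEFs with TNFα, against 12.35, 12.29, 12.39 and 12.41 in littermate MEFs with TNFα, and 11.84, 11.80, 11.80 and 11.78 in untreated SIMPL-/- MEFs, against 12.41, 12.38, 12.37 and 12.35 in untreated littermate MEFs. Each genotype spanned less than 0.2 over its 8 Timp2 arrays, and the gap between genotypes was wider. The log2 difference without TNFα was -0.42 for Mmp14 (SE 0.054, adjusted p = 5.94e-06) and -0.57 for Timp2 (SE 0.046, adjusted p = 8.49e-09). With TNFα it was -0.37 for Mmp14 (adjusted p = 1.72e-05) and -0.51 for Timp2 (adjusted p = 3.64e-08).

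Timp1 moved opposite to Timp2. It is a secreted inhibitor that blocks Mmp9 and most soluble metalloproteinases but is weak against the membrane-anchored ones. Its log2 values were 12.72, 12.64, 12.71 and 12.67 in SIMPL-/- MEFs with TNFα, against 11.10, 11.56, 11.57 and 11.62 in littermate MEFs with TNFα. Untreated SIMPL-/- MEFs gave 12.54, 12.48, 12.54 and 12.48, against 11.56, 11.42, 11.37 and 11.37 in untreated littermate MEFs. Every SIMPL-/- array was above every littermate array, and 1 littermate array with TNFα stood below the other 3 of its group. The log2 difference was 1.08 (SE 0.088, adjusted p = 1.01e-08) without TNFα, a level 2.11-fold higher in SIMPL-/- MEFs, and 1.22 (SE 0.088, adjusted p = 1.58e-09) with it. Without the low littermate array the difference with TNFα was 1.10 (adjusted p = 7.16e-11), and over all 24 alternatives its adjusted p ran from 7.16e-11 to 0.000997.

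Timp3, which is held in the matrix and also inhibits the sheddase Adam17, was higher too, by a smaller amount. It read 12.87, 12.91, 12.74 and 12.82 in SIMPL-/- MEFs with TNFα, against 12.26, 12.29, 12.41 and 12.42 in littermate MEFs with TNFα. Without TNFα it read 12.67, 12.70, 12.73 and 12.64 in SIMPL-/- MEFs, against 12.41, 12.47, 12.28 and 12.23 in littermate MEFs. The lowest SIMPL-/- array was above the highest littermate array in both states. The log2 difference was 0.34 (SE 0.062, adjusted p = 0.000246) without TNFα and 0.49 (SE 0.062, adjusted p = 3.26e-06) with it.

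**Figure D2:**
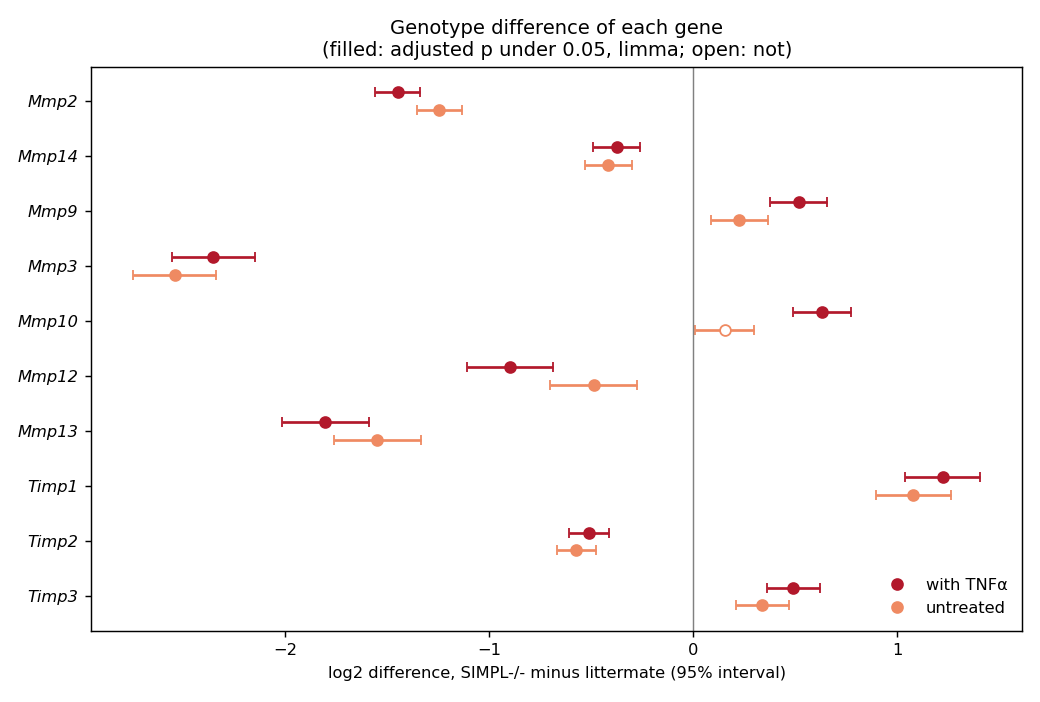
Log2 difference, SIMPL-/- minus littermate MEFs (horizontal axis), of each gene with TNFα and untreated, with its 95% interval from limma. Filled points have an adjusted p under 0.05; Mmp3 lies farthest to the left at -2.54 untreated, Timp1 farthest to the right at 1.22 with TNFα, and Mmp10 untreated is the only open point.

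Mmp3, Mmp10, Mmp12 and Mmp13 lie close together on mouse chromosome 9, in a run of 10 metalloproteinase genes that the RefSeq table orders as Mmp13, Mmp12, Mmp1b, Mmp3, Mmp1a, Mmp10, Mmp8, Mmp27, Mmp20 and Mmp7. Irak1bp1 is on chromosome 9 as well, with the cluster 752 to 761 coding genes away from it. The 6 others of the 10 described here are spread over chromosomes 2 (Mmp9), 8 (Mmp2), 10 (Timp3), 11 (Timp2), 14 (Mmp14) and X (Timp1). For the cluster genes in the set the bases just upstream of the RefSeq start are shown, since these genes carried both the largest genotype difference and the only called difference in TNFα response. The windows hold 250 bases of GRCm38.p6 each, read 5′ to 3′ on the plus strand at chr9:7445572-7445821 for Mmp3, chr9:7502092-7502341 for Mmp10, chr9:7272264-7272513 for Mmp13 and chr9:7347124-7347373 for the second of 2 windows listed for Mmp12. Capitals mark the AP-1 motif TGANTCA. The first Mmp12 window, which lacks this motif, is not shown.
Mmp3: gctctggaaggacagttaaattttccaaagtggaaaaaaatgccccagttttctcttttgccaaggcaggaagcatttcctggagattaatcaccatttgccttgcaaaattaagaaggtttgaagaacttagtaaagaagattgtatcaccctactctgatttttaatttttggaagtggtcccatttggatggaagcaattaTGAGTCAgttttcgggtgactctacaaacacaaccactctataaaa
Mmp10: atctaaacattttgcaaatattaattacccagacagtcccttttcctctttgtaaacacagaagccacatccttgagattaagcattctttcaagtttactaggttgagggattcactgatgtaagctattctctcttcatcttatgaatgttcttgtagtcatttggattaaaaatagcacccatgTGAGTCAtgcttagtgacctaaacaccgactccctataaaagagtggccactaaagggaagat
Mmp13: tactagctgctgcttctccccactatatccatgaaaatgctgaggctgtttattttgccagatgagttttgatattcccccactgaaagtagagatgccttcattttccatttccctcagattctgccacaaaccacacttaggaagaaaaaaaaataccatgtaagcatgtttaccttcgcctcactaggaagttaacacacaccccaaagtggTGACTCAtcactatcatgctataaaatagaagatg
Mmp12: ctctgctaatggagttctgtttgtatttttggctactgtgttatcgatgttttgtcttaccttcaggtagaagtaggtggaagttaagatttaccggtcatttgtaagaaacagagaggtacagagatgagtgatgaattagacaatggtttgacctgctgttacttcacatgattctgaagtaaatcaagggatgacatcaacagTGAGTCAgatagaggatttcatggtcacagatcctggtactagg

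Windows were listed for 8 of the 10 genes (none for Mmp2 or Mmp9), 9 windows in all. The motif TGANTCA, searched on both strands, was in 4 of these 9 windows, those of Mmp3, Mmp10, Mmp13 and the second of Mmp12, and in 6.75% of all 32851 mouse promoter windows of that length. It lay 46 to 40 bases before the start in Mmp3, 63 to 57 in Mmp10, 35 to 29 in Mmp13 and 44 to 38 in Mmp12. The TATA motif TATAAA was in the windows of Mmp3, Mmp10 and Mmp13 (12.4% of all windows). The κB consensus, searched as GGGRNNYYCC on both strands, was found in the first window of Mmp12 alone (7.25% of all windows). In it R is A or G, Y is C or T and N is any base. The PEA3 motif AGGAAG was in 6 of the 9 windows and 29.5% of all. No motif overlapped another, and a match is a description of the letters, not of a factor's binding.

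The largest genotype difference of the set belonged to Mmp3, which encodes stromelysin 1, an enzyme that degrades proteoglycans, laminin and fibronectin and activates other metalloproteinase precursors. It read 5.80, 6.04, 6.07 and 6.21 on the log2 scale in SIMPL-/- MEFs with TNFα, against 8.24, 8.41, 8.37 and 8.50 in littermate MEFs with TNFα. Untreated, it read 5.67, 5.75, 6.02 and 5.64 in SIMPL-/- MEFs, against 8.46, 8.41, 8.20 and 8.16 in littermate MEFs. The highest SIMPL-/- array, at 6.21, was below the lowest littermate array, at 8.16. The log2 difference was -2.54 without TNFα (SE 0.097, adjusted p = 3.57e-13), a level 5.82-fold lower in SIMPL-/- MEFs, and -2.35 with it (SE 0.097, adjusted p = 8.87e-13). The mean of untreated SIMPL-/- MEFs, 5.77, was below the level of 6 used to mark dim genes, and whether it was above background was not tested.

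Mmp13, collagenase 3, cleaves fibrillar collagens and is the main interstitial collagenase of mouse connective tissue. Its log2 values were 6.55, 6.99, 6.94 and 7.12 in SIMPL-/- MEFs with TNFα, against 8.51, 8.85, 8.63 and 8.81 in littermate MEFs with TNFα. Untreated SIMPL-/- MEFs gave 6.82, 6.65, 6.82 and 6.68, against 8.34, 8.35, 8.31 and 8.14 in untreated littermate MEFs. The groups of the 2 genotypes stayed more than 1 log2 unit apart. The log2 difference was -1.55 without TNFα (SE 0.10, adjusted p = 5.46e-10), 2.92-fold lower in SIMPL-/- MEFs, and -1.80 with it (SE 0.10, adjusted p = 5.73e-11).

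Mmp12, the macrophage metalloelastase, cleaves elastin and is best known from myeloid cells. It read 6.78, 6.74, 6.87 and 6.39 in SIMPL-/- MEFs with TNFα, against 7.47, 7.41, 7.69 and 7.80 in littermate MEFs with TNFα. Without TNFα it read 7.05, 6.77, 6.80 and 6.89 in SIMPL-/- MEFs, against 7.45, 7.37, 7.39 and 7.24 in littermate MEFs. The genotypes did not overlap, although untreated replicate 1 of the SIMPL-/- MEFs, at 7.05, came near the lowest littermate array, at 7.24. The log2 difference was -0.49 without TNFα (SE 0.10, adjusted p = 0.00078) and -0.90 with it (SE 0.10, adjusted p = 7.18e-07).

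Markers of myeloid cells moved with genotype in the direction of Mmp2, Mmp3, Mmp12, Mmp13, Mmp14 and Timp2. Mmp9, Timp1 and Timp3 went the other way, as did Mmp10 with TNFα. Over all genes 23.3% were higher and 17.6% lower in SIMPL-/- MEFs without TNFα, and 17.8% and 18.4% with it. The all-gene median log2 difference was 0.07 without TNFα and 0.03 with it. In untreated SIMPL-/- MEFs 30 of 32 myeloid and macrophage genes were lower and 1, Itgax, was higher, with a median log2 difference of -2.19. With TNFα 30 were lower and none higher, with a median of -2.26. The summed level of the list (log2) was 12.61 to 12.69 in SIMPL-/- MEFs with TNFα, 12.57 to 12.71 in untreated SIMPL-/- MEFs, 14.85 to 15.29 in littermate MEFs with TNFα and 14.79 to 15.14 in untreated littermate MEFs. Array values have no true zero, so which markers are absent cannot be read. Among fibroblast markers 4 of 16 were higher and 10 lower in untreated SIMPL-/- MEFs, with a median of -0.26. The part of either shift in the lower metalloproteinase and Timp2 values was not tested. In bulk RNA fewer cells of a type and less RNA per cell cannot be told apart.

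Among the metalloproteinases of the set, Mmp9 was called higher in SIMPL-/- MEFs in both states and Mmp10 with TNFα alone. Mmp9 encodes gelatinase B, the inducible counterpart of gelatinase A, and Mmp10 encodes stromelysin 2, a close relative of stromelysin 1. Mmp9 read 8.06, 8.11, 7.95 and 8.08 in SIMPL-/- MEFs with TNFα and 7.51, 7.43, 7.49 and 7.45 in untreated SIMPL-/- MEFs, against 7.37, 7.63, 7.67 and 7.46 in littermate MEFs with TNFα and 7.13, 7.26, 7.32 and 7.26 in untreated littermate MEFs. Mmp10 read 6.92, 6.97, 6.75 and 7.04 in SIMPL-/- MEFs with TNFα and 6.25, 6.32, 6.27 and 6.35 in untreated SIMPL-/- MEFs, against 6.22, 6.28, 6.20 and 6.45 in littermate MEFs with TNFα and 6.15, 6.17, 6.03 and 6.22 in untreated littermate MEFs. For both genes the TNFα treated SIMPL-/- arrays stood above all 12 others. The genotype difference in Mmp9 was 0.23 without TNFα (SE 0.067, adjusted p = 0.0117) and 0.52 with it (SE 0.067, adjusted p = 4.47e-06). In Mmp10 it was 0.15 without TNFα (SE 0.068, adjusted p = 0.079), which did not pass the threshold, and 0.63 with it (SE 0.068, adjusted p = 4.47e-07). Under 4 of the 24 alternatives the untreated Mmp10 difference passed, with adjusted p-values over all of them from 0.0307 to 0.449.

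Few of the genes were called after the short exposure to TNFα. In SIMPL-/- MEFs Mmp9 and Mmp10 rose and no gene of the set fell, so that 2 of 10 were called, beside 1.73% of all genes higher and 1.39% lower. In littermate MEFs Mmp9 and Mmp13 rose and none fell, again 2 of 10, beside 2.7% of all genes higher and 2.45% lower. The median log2 change of the 10 genes was 0.16 in SIMPL-/- MEFs, against -0.02 over all genes, and 0.08 in littermate MEFs, against 0.01 over all genes. Centring each array on its median made 72.5% of all calls in SIMPL-/- MEFs rises, against 55.4% as deposited. The responses of the 2 genotypes come from different arrays and share no control.

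**Figure D3:**
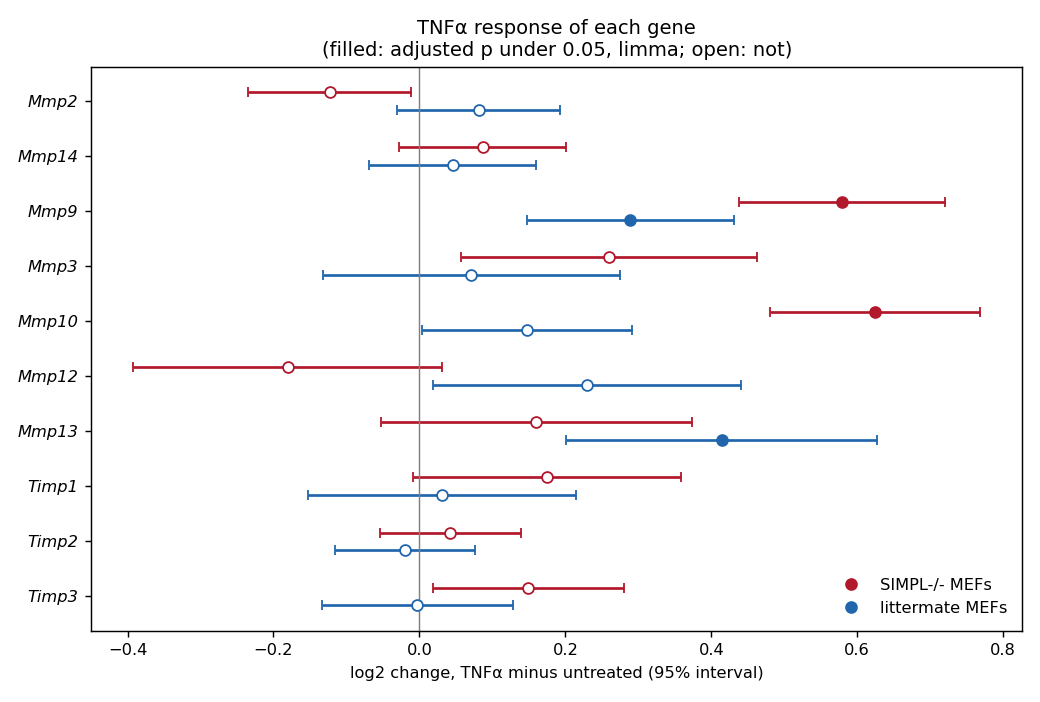
Log2 change, TNFα minus untreated (horizontal axis), of each gene in SIMPL-/- and in littermate MEFs, with its 95% interval from limma. Filled points have an adjusted p under 0.05; they are Mmp9 and Mmp10 in SIMPL-/- MEFs, at 0.58 and 0.62, and Mmp9 and Mmp13 in littermate MEFs, at 0.29 and 0.41.

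Mmp10 changed by 0.62 on the log2 scale in SIMPL-/- MEFs (SE 0.068, adjusted p = 9.29e-06), a level 1.54-fold higher with TNFα, and by 0.15 in littermate MEFs (SE 0.068, adjusted p = 0.286). All 4 treated SIMPL-/- arrays were above all 4 untreated ones, whereas the littermate arrays of the 2 treatments overlapped. Mmp10 averaged 6.92 in SIMPL-/- MEFs with TNFα and 6.30 in untreated SIMPL-/- MEFs. It averaged 6.29 and 6.14 in littermate MEFs with and without TNFα. All but the first mean were just above the level of 6 used to mark dim genes, and whether they were above background was not tested. The difference between the responses, tested as an interaction, was 0.48 (SE 0.097, 95% interval 0.27 to 0.68, adjusted p = 0.0268). Mmp10 was the only gene of the set called in that comparison, 1 of 10, beside 0.0953% of all genes with a response higher in SIMPL-/- MEFs and 0.441% with a lower one. Under quantile normalization 28.7% of all calls in that comparison were higher, against 17.8% as deposited. The Mmp10 call rested on the full set of arrays: it was lost in the methods' t-test and when any 1 of 11 arrays was left out (SIMPL-/- with TNFα 1, 2 or 4, untreated SIMPL-/- 1 or 3, littermate with TNFα 1, 2 or 3, untreated littermate 1, 2 or 4), with differences of 0.44 to 0.48 and adjusted p-values of 0.0505 to 0.077. Over all 24 alternatives the adjusted p ran from 0.00528 to 0.077.

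Mmp9 rose in both genotypes. The log2 change was 0.58 in SIMPL-/- MEFs (SE 0.067, adjusted p = 1.85e-05) and 0.29 in littermate MEFs (SE 0.067, adjusted p = 0.0143), and in each genotype the treated arrays lay above the untreated ones. The responses differed by 0.29 (95% interval 0.09 to 0.49), which did not pass the threshold (adjusted p = 0.204). The littermate call was lost in the fit of the compared groups alone, in the methods' t-test, and without untreated littermate array 1 or without littermate array 2 or 3 with TNFα. Leaving out those arrays gave changes of 0.24 to 0.26 and adjusted p-values of 0.0501 to 0.0634, within a range of 0.00378 to 0.167 over all alternatives.

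Mmp13 rose by 0.41 on the log2 scale in littermate MEFs (SE 0.10, adjusted p = 0.0198), where all treated arrays were above all untreated arrays. In SIMPL-/- MEFs the change was 0.16 (SE 0.10, adjusted p = 0.493), with treated replicate 1, at 6.55, below every untreated array. The responses differed by -0.25 (95% interval -0.56 to 0.05, adjusted p = 0.467), so they were not shown to differ. Without that replicate the change in SIMPL-/- MEFs was 0.28 and the difference -0.14, and without replicate 4 the change was 0.086. The littermate call was lost in the methods' t-test and without untreated littermate array 4 or without littermate array 2 or 4 with TNFα. Leaving out those arrays gave changes of 0.36 to 0.38 and adjusted p-values of 0.0648 to 0.0738, within a range of 0.003 to 0.0957 over all alternatives.

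The other 7 genes had changes that did not pass the threshold in either genotype, although the Timp1 change in SIMPL-/- MEFs passed in the methods' t-test (adjusted p = 0.0479, within a range of 0.0479 to 0.51 over all alternatives). Mmp12 pointed in opposite directions, with -0.18 in SIMPL-/- MEFs (adjusted p = 0.42) and 0.23 in littermate MEFs (adjusted p = 0.251), and the difference of -0.41 (95% interval -0.71 to -0.11) was not called (adjusted p = 0.239). Without SIMPL-/- array 4 with TNFα, at 6.39, the Mmp12 change in SIMPL-/- MEFs was -0.08 and the difference -0.31. Mmp2 gave -0.12 in SIMPL-/- MEFs and 0.08 in littermate MEFs, with a difference of -0.20 (95% interval -0.36 to -0.05, adjusted p = 0.269). Mmp3, the gene with the largest genotype difference of the set, changed by 0.26 in SIMPL-/- MEFs (adjusted p = 0.184) and 0.07 in littermate MEFs (adjusted p = 0.785), and the difference of 0.19 had an interval from -0.10 to 0.48. Timp1 and Timp3 changed by 0.18 and 0.15 in SIMPL-/- MEFs, where treated and untreated arrays did not overlap for either gene. In littermate MEFs they changed by 0.03 and -0.0028, and the arrays overlapped. The share of all genes that separated in this way was not counted. The difference between the responses was 0.14 for Timp1 (95% interval -0.12 to 0.40, limma adjusted p = 0.655). For Timp3 it was 0.15 (95% interval -0.03 to 0.34, adjusted p = 0.481), and neither was called. Mmp14 and Timp2 changed by less than 0.1 in each genotype.

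Within the chromosome 9 cluster the genes called between genotypes were interleaved with others that were not. All 10 cluster genes were measured. Those called were Mmp3, Mmp12 and Mmp13 without TNFα, and these and Mmp10 with it. Over all genes 23.3% were higher and 17.6% lower without TNFα, and 17.8% and 18.4% with it. The count of calls is therefore not read as particular to the cluster. Mmp1b lies between Mmp12 and Mmp3 and had a log2 difference of 0.07 without TNFα (adjusted p = 0.513), and Mmp1a, a collagenase gene between Mmp3 and Mmp10, had -0.01 (adjusted p = 0.916). Mmp8, the neutrophil collagenase, had -0.28 with TNFα (SE 0.12, adjusted p = 0.0833). None of the 6 cluster genes outside the set was called in a TNFα response. Over all genes 1.73% rose and 1.39% fell in SIMPL-/- MEFs, and 2.7% rose and 2.45% fell in littermate MEFs.

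**Figure D4:**
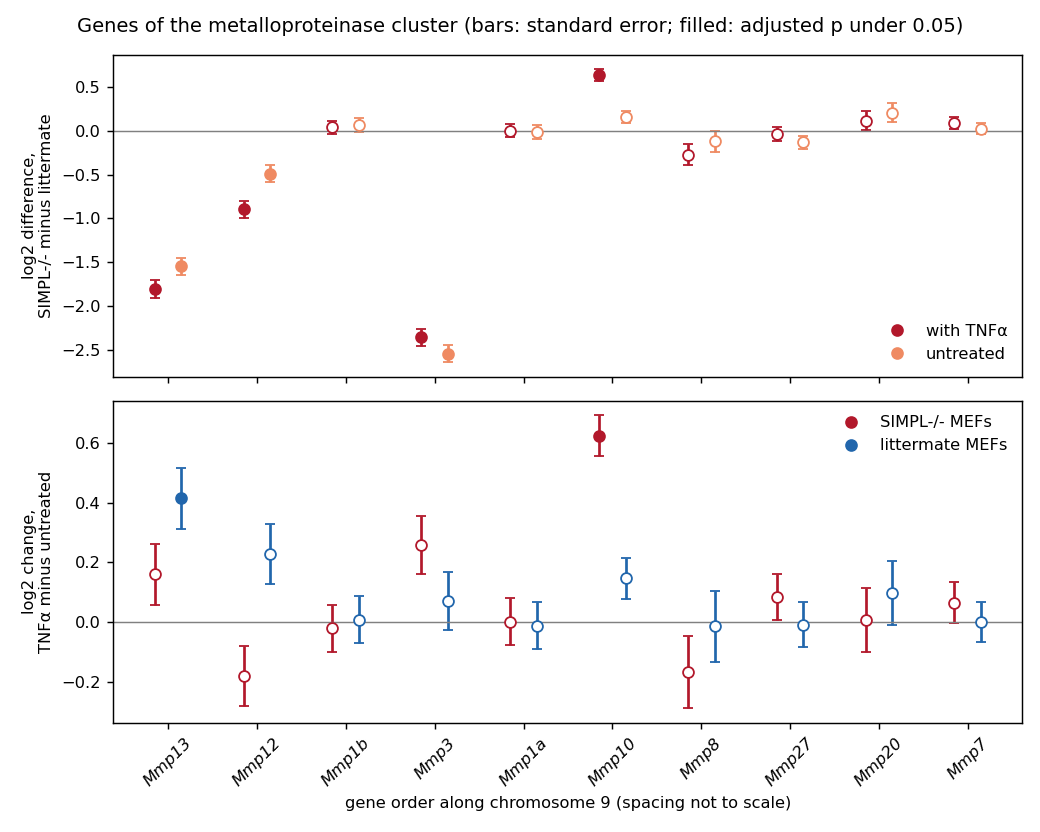
Metalloproteinase genes of chromosome 9 in their order (horizontal axis, spacing not to scale), with the log2 difference SIMPL-/- minus littermate (top) and the log2 change TNFα minus untreated (bottom); bars are standard errors and filled points have an adjusted p under 0.05. Mmp13, Mmp12 and Mmp3 lie below 0 in the top panel, Mmp10 stands at 0.63 there with TNFα, and the 6 other genes are open in both panels.

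Over all genes 23.3% were higher and 17.6% lower in SIMPL-/- MEFs without TNFα, and 17.8% and 18.4% with it. After TNFα 1.73% rose and 1.39% fell in SIMPL-/- MEFs, and 2.7% rose and 2.45% fell in littermate MEFs. Of the 16 other family genes measured, Timp4 among them, 2 were higher and 4 lower in untreated SIMPL-/- MEFs. Their median log2 difference was 0.01, against 0.07 over all genes, and none was called in a TNFα response. The only change over 1 was in Mmp16, a membrane-anchored enzyme, which averaged 7.50 ± 0.021 in untreated SIMPL-/- MEFs and 8.65 ± 0.035 in untreated littermate MEFs (SD, n = 4 each), a difference of -1.15 (SE 0.071, adjusted p = 2.66e-10). With TNFα none was higher and 5 were lower, with a median of -0.07. The ADAM and ADAMTS relatives, like all genes, had calls in both directions. Among 10 ADAM genes, most of them for sheddases of membrane proteins, 4 were higher and 6 lower without TNFα. Among 17 ADAMTS proteases 5 were higher and 6 lower without TNFα. Adam8, a sheddase of leukocytes and osteoclasts, differed by -1.41 (adjusted p = 1.07e-12), and Adam22, which lacks protease activity, by -1.29 (adjusted p = 6.65e-10). Adamts3, which trims procollagen, and Adamts15, an aggrecanase, differed by -1.25 and -1.26 with TNFα. Adamts4, also an aggrecanase, was the 1 ADAMTS gene called in a TNFα response, with 0.44 in littermate MEFs (adjusted p = 0.00185), and is named because it is the single call.

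Plasminogen activation produces plasmin, an activator of metalloproteinase precursors. Of its 7 measured genes 3 rose with TNFα in SIMPL-/- MEFs and 2 in littermate MEFs, and none fell. Over all genes 1.73% rose and 1.39% fell in SIMPL-/- MEFs, and 2.7% rose and 2.45% fell in littermate MEFs. Plaur, the urokinase receptor, averaged 10.08 ± 0.12 in SIMPL-/- MEFs with TNFα and 9.60 ± 0.096 in untreated SIMPL-/- MEFs, against 8.37 ± 0.12 in littermate MEFs with TNFα and 7.90 ± 0.082 in untreated littermate MEFs (SD, n = 4 each). It rose with TNFα by 0.48 in SIMPL-/- MEFs (adjusted p = 0.000553) and 0.47 in littermate MEFs (adjusted p = 0.000443), and its genotype difference was 1.71 with TNFα (adjusted p = 1.4e-12). Plau, urokinase itself, named because it is among these few calls, rose by 0.51 and 0.56 (adjusted p = 0.000176 in SIMPL-/- MEFs and 4.16e-05 in littermate MEFs). Serpinb2, an inhibitor of urokinase, rose by 0.53 in SIMPL-/- MEFs (adjusted p = 0.0193), against -0.07 in littermate MEFs, and the difference of 0.59 was not called (adjusted p = 0.158).

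The cathepsins, which are lysosomal proteases, and their cystatin inhibitors went 1 way: 10 of 13 genes were lower in untreated SIMPL-/- MEFs and none higher, with a median of -0.63. Over all genes 17.6% were lower and 23.3% higher in that comparison, with a median of 0.07. Ctss, which is also on the myeloid marker list, differed by -2.61 with TNFα (adjusted p = 1.1e-13), Ctsc by -1.41 and Ctsb by -1.38. Among 16 regulators of metalloproteinases 6 were higher and 7 lower in the same untreated comparison. Cd44, a hyaluronan receptor that docks Mmp9 at the cell surface, was 1.20 higher in untreated SIMPL-/- MEFs (adjusted p = 1.71e-11) and rose with TNFα in both genotypes, by 0.39 in SIMPL-/- and 0.49 in littermate MEFs. Spock3, a testican proteoglycan, differed by -1.49 with TNFα (adjusted p = 1.02e-10). Sdc4, a syndecan named because it is the 1 regulator whose TNFα responses were called as different, changed by 0.35 in SIMPL-/- MEFs and 0.82 in littermate MEFs, a difference of -0.47 (adjusted p = 0.0207). Over all genes 0.0953% had a response higher in SIMPL-/- MEFs and 0.441% a lower one.

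**Figure D5:**
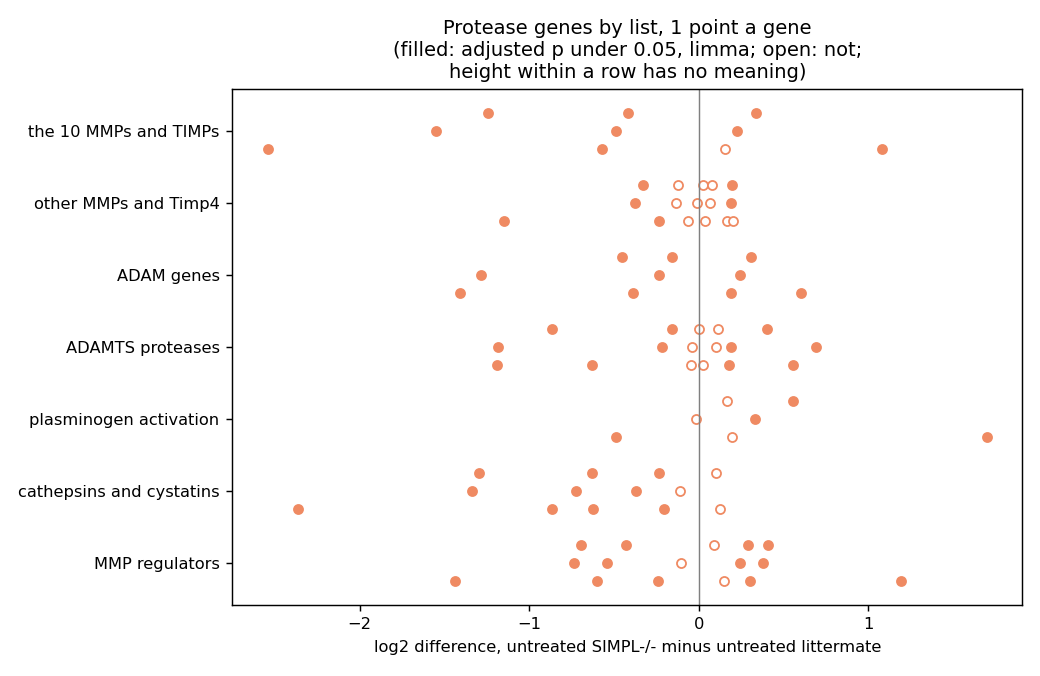
Log2 difference, untreated SIMPL-/- minus untreated littermate MEFs (horizontal axis), of each gene in 7 lists (rows), 1 point a gene, filled at an adjusted p under 0.05. The cathepsins and cystatins have filled points on the left alone, whereas the other lists have them on both sides of 0.

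For the 4 genes of the set whose group means spanned more than 1 log2 unit, the genes with the nearest profile over the 16 arrays were sought, by the root mean square difference of centred log2 values. Nearest to Mmp2 were Igfbp2 (0.074), an insulin-like growth factor binding protein, Adam8 (0.081) and Islr (0.081). Nearest to Mmp3 were Mest (0.149), an imprinted gene of mesoderm, Abi3bp (0.175) and Egfl6 (0.183). Nearest to Mmp13 were Igf1 (0.188), the insulin-like growth factor, Sema4d (0.193) and Gpm6b (0.194). Nearest to Timp1 were Ccn2 (0.101), a matricellular growth factor, Scd1 (0.103), a lipid desaturase, and Hmga2 (0.112), a chromatin protein of embryonic cells. Ccn2 averaged 12.74 in SIMPL-/- MEFs with TNFα and 12.61 in untreated SIMPL-/- MEFs, against 11.67 in littermate MEFs with TNFα and 11.49 in untreated littermate MEFs.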

How the data were processed

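RNA of 16 MEF cultures was hybridised to Affymetrix Mouse Gene 1.0 ST arrays. The authors deposited 1 table of log2 values; the submitters' processing notes name Partek and RMA, without versions, while the methods name Affymetrix Microarray Suite. RMA corrects background and equalises the distributions of arrays, so a shift shared by most genes is removed. Of 28853 probe sets, 21789 have 1 gene symbol, 1621 have several and 5443 are not listed; the 19938 genes with a symbol were kept, 999 of them by the brightest of several probe sets. Arrays were grouped by their titles. With limma 3.58.1 in R 4.3.3, a mean per group was fitted to all arrays (12 residual and 6.19 prior degrees of freedom); tests were two-sided, adjusted over all genes, and the fit was tested on simulated data. The number of arrays limits precision.

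The members and gene lists were chosen with earlier results of these data known. Named genes are the members, Irak1bp1, up to 4 genes per protease or regulator list with the largest called change over 1, and the 3 nearest profiles; others are said to be named for a small count. Of the genes, 19856 have a RefSeq entry, used for names, order and chromosomes; that table and the upstream sequences are of GRCm38.p6. A few listed genes are not analysed here. Alternatives were other scalings, filters, variance models, thresholds and leaving out each array.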

Additional observations from a re-analysis of the deposited data

Results flagged for a closer look

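Timp1 in littermate MEFs with TNFα had 1 array far from the others: replicate 1 read 11.10 on the log2 scale against 11.56 to 11.62 on the other 3, a gap that was 0.879 of the group's range. This was 1 of 40 groups examined, and chance sets apart about 5% of groups. On that array the mean log2 level of the myeloid markers was 9.48, the highest of its group, and that of the fibroblast markers 12.33, within its group; the part of either was not tested.

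Mmp10 was singled out because its TNFα response differed between the genotypes by 0.48 on the log2 scale in a test of the difference itself, with 0.62 in SIMPL-/- MEFs and 0.15 in littermate MEFs.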

How the results depend on the processing

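No paired analysis was possible because the labels give no replicate numbers and no source ties treated arrays to untreated arrays by embryo. The genotype calls were kept under each of the 24 alternative fits for the 9 genes called without TNFα and the 10 called with it. At the methods' threshold, a fold change over 1.5 with p under 0.001 in the limma fit, 4 genes differed without TNFα and 6 with it. The TNFα responses at that threshold gave 1 gene in SIMPL-/- MEFs, 0 in littermate MEFs and 0 for the difference. At an adjusted p under 0.05 the count in SIMPL-/- MEFs was 2 in the limma fit and 3 in the methods' t-test. The littermate response count of 2 became 1 with only the compared arrays fitted, 0 in the methods' t-test and 0 at an adjusted p under 0.01, and 0 to 2 with 1 array left out. The response difference count of 1 became 0 in the methods' t-test and 0 at an adjusted p under 0.01, and 0 to 1 with 1 array left out.

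Changes of sign were all in values near 0 that were not called: Timp1 in littermate MEFs (-0.0225 to 0.153 with 1 array left out), Timp2 there (-0.0357 to 0.00268), Timp3 there (-0.0428 to 0.0375, and 0.0024 with median centring) and the Mmp14 response difference (-0.00322 with quantile normalization). Over all genes, 107 response differences became 253 with trended, robust moderation, 182 with array weights and 73 in the methods' t-test, and 623 and 1026 TNFα calls in SIMPL-/- and littermate MEFs became 241 and 501 in that test. Leaving out SIMPL-/- array 2 with TNFα gave 66 response differences and 400 TNFα calls in SIMPL-/- MEFs, leaving out array 3 gave 184 response differences, and fitting only the compared arrays gave 406 TNFα calls in SIMPL-/- MEFs; the cause was not tested. With quantile normalization, and with dim genes left out, 1 of the other metalloproteinase genes and 2 ADAMTS genes were lower with TNFα in SIMPL-/- MEFs.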

Other observations

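Markers of other cell types that can make these enzymes gave mixed counts between untreated SIMPL-/- and untreated littermate MEFs. Over all genes 23.3% were higher and 17.6% lower in that comparison, and 17.8% higher and 18.4% lower with TNFα. Of 8 osteoclast markers 3 were higher and 2 lower, of 11 neutrophil markers none was higher and 3 lower, and of 12 chondrocyte and osteoblast markers 3 were higher and 1 lower. Of 9 endothelial markers 3 were higher and none lower, and of 9 mast, lymphoid and erythroid markers 1 was higher and 1 lower. Smooth muscle and myofibroblast markers were higher in 6 of 8 and lower in none, with a median log2 difference of 0.40, and epithelial markers were higher in 7 of 11 and lower in none, with a median of 0.27. With TNFα 7 of the 8 smooth muscle and myofibroblast markers were higher, with a median of 0.51, and 4 of the 11 epithelial markers, with a median of 0.0068. Their part in the differences of the metalloproteinase and TIMP genes was not tested.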
